A study of Homo sapiens with 12 samples.

Results

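The DNA replication genes described here are 35 protein-coding genes for replication licensing, the replication fork and nucleotide supply, taken by gene name from a table of 58219 genes. They comprise 11 origin licensing genes, 6 helicase activation genes, 4 genes for polymerase and primase subunits, 8 genes for the sliding clamp, its loader and single-strand binding, 2 genes that finish the lagging strand, and 4 nucleotide supply genes. All 35 were present in the table and reached 1 TPM in at least 2 libraries, so all 35 were tested. Expression was measured by poly(A) RNA sequencing in 12 libraries of H9 cells, a widely used line of human embryonic stem cells, either wild type or SOX21-/-, collected at days 0, 4 and 8 of a neural differentiation. Day 0 libraries are labelled as stem cells and those of days 4 and 8 as neural progenitors derived from them. Each of the 6 groups held 2 libraries: those of wild type carry the names WT1 and WT2, those of SOX21-/- the names S13 and S23. How the deletion was made and the differentiation protocol are not given in the sources used here. These sources also do not say whether the labels mark separate clones, or whether a label repeated across days is 1 culture, so a p-value here reflects nothing but the spread among the libraries, which may be technical.

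In the cell cycle, a replication origin is first licensed and later fired. ORC, CDC6 and CDT1 load the MCM2-7 ring onto DNA, geminin (GMNN) blocks CDT1 against renewed loading, and CDC45 and the GINS complex turn the ring into an active helicase. DNA polymerases then copy both strands with the clamp PCNA. Many of the genes for these proteins are transcribed around the entry into S phase under E2F transcription factors. Embryonic stem cells and neural progenitors are both dividing cells in which this machinery is in use.

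Day 0 libraries stood apart in the makeup of their transcripts. The share of TPM in protein-coding genes outside the mitochondrial genome was 55.9% to 56.4% at day 0, and later 83.5% to 87.1%. Genotype differences within a day are therefore given on the deposited TPM, and steps between days on coding TPM, in which these genes are rescaled to a total of 1000000 per library. Depth is unknown, since TPM (transcript abundance scaled to a fixed total) keeps no read numbers. At day 4 SOX21 itself stood at 156 and 166 TPM in wild type, against 162 and 143 TPM in the libraries labelled SOX21-/-. At day 8 it stood at 129 and 100.04 TPM, against 253 and 69.9 TPM. On both days the genotypes overlapped. Which part of the gene was deleted is not given, so the mRNA does not check the label, and SOX21-/- below means the libraries labelled so. The summed coding TPM of 8 pluripotency markers was 4757 to 5130 at day 0 and 881 to 1406 later, and that of 8 neural progenitor markers was 191 to 211 at day 0 and 2069 to 2445 at day 8. At day 4 the neural progenitor sum was 1362 to 1422 in wild type and 1240 to 1671 in SOX21-/-. These sums thus went with the labelled cell types, but single markers did not all follow. The pluripotency markers DPPA4, LIN28A, DNMT3B and L1TD1 still reached 1 coding TPM at day 8 in both genotypes. Of the 8, 1 was called higher from day 0 to day 4, by 1.69 in wild type and 1.88 in SOX21-/-.

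The promoters of 6 members that were lower at day 8 in the libraries labelled SOX21-/- are shown with their letters of the E2F type. They are the 6 with the lowest adjusted p there, and these letters played no part in the choice. Each runs 5′ to 3′ from 250 bases before to 50 bases after the most upstream RefSeq start (GRCh38.p14). Capitals mark matches to the form TTCCCGC, the form TTGGCGC, the form TTCGCGC or the form TTGCCGC on either strand, and overlapping matches merge into 1 run. The windows are chr7:100101348-100101647, minus strand for MCM7, chr2:135876394-135876693, minus strand for MCM6, chr20:5126573-5126872, minus strand for PCNA, chr6:52284693-52284992, minus strand for MCM3, chr3:127598161-127598460, plus strand for MCM2 and chr16:85688905-85689204, minus strand for GINS2.
MCM7: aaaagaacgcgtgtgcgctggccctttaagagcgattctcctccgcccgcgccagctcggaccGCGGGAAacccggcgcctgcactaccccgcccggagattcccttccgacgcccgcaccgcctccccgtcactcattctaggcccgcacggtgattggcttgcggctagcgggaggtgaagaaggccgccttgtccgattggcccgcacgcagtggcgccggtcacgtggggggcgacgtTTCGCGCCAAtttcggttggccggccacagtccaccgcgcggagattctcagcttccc
MCM6: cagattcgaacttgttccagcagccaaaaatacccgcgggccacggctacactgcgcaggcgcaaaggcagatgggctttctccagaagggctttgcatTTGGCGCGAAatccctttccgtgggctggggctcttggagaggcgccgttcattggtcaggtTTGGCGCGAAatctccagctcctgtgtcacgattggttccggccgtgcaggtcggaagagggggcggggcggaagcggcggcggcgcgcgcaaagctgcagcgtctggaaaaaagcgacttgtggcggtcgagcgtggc
PCNA: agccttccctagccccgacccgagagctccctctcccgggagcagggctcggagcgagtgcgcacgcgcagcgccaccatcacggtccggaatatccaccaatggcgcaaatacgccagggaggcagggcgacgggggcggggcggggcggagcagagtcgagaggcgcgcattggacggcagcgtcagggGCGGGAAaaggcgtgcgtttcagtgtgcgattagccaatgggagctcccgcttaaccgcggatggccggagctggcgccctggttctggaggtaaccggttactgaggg
MCM3: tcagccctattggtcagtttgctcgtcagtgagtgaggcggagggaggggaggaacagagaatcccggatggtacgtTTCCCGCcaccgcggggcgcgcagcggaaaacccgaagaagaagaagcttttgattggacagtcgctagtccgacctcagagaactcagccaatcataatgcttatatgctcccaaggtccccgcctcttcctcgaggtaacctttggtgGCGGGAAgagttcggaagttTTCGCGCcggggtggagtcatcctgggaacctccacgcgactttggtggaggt
MCM2: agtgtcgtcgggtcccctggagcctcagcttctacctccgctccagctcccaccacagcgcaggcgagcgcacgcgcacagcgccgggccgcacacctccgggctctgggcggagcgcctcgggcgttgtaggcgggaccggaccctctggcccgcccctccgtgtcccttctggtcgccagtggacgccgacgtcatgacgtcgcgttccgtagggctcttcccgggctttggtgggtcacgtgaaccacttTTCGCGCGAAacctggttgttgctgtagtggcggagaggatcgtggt
GINS2: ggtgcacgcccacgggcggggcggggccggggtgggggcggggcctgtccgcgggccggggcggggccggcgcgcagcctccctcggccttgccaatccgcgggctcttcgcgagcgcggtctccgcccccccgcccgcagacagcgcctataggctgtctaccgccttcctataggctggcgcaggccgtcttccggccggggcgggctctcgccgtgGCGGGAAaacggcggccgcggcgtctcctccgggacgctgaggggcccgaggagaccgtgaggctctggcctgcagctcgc

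Counting the start site as 0, MCM6 held 4 matches in 2 overlapping pairs, which began at -151 and -89. MCM7 held 3 matches, at -187, -8 and -5, of which the last 2 overlap. In PCNA and GINS2 a single match began at -59 and at -31. MCM3 had matches at -173, -23 and -3, and the 2 overlapping matches of MCM2 began at 3 and 6. Over all members, 23 of the 30 with a window held at least 1 match, or 76.7%, against 13% of all 27305 RefSeq genes with windows of the same length. Those genes were not limited to protein-coding or expressed ones, as the members are. The share was 38.6% (17 of 44) for a list of 53 other replication genes and 17.4% (4 of 23) for a list of 28 mitosis genes. Among members lower at day 8 it was 7 of 7, and among the others 16 of 23. The letters CCAAT, on either strand, were in 17 of the 30 member windows (56.7%) and in 35.7% of all windows. A match is a description of the letters and was not tested as a binding site. No window was in the table for MCM4, MCM5, GINS4, RPA2 and RPA3.

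At day 0 no replication gene passed the test between genotypes. None of the 35 was called by limma (background 0.384% of 24248 genes), with 0 at an unadjusted p under 0.05 and a lowest adjusted p of 0.959. The log2 fold changes ran from -0.27 for RFC5 to 0.37 for MCM10, with a median of 0.01, and 18 were positive and 17 negative. Their 95% intervals extended by a median of 0.29 to each side of the estimate, and over all members they lay between -0.63 and 0.86. MCM7 had 95.5 and 89.5 TPM in WT1 and WT2, and 98.3 and 98.3 TPM in S13 and S23. The S13 and S23 values lay above the wild-type ones by less than the SE of the test (log2 fold change 0.09, SE 0.10). PCNA had 81.2 and 77.4 TPM in wild type and 76.1 and 79.1 TPM in SOX21-/-, and here the genotypes overlapped.

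TPM is scaled by transcript length, so levels can be set side by side between genes. In all 4 day 0 libraries MCM4, a subunit of the MCM2-7 ring, was the highest member, at 309 to 359 TPM, and ORC1, a subunit of the origin recognition complex, the lowest, at 8.55 to 9.34 TPM. The 6 subunits of the ring, which assemble in equal number, were far from equal in mRNA at day 0: the highest (MCM4) was 10.9 to 12.7 times the lowest (MCM6). At day 4 this ratio was 4.09 to 4.96 and at day 8 it was 3.60 to 4.28, with MCM6 the lowest of the 6 in every library. The highest was MCM4 in 11 libraries and MCM7 in WT1 at day 8. The 4 GINS subunits moved the other way, from ratios of 1.71 to 3.52 at day 0 to 4.82 to 7.61 at day 8, where GINS3 was the lowest of all 35 members in each library, at 13.1 and 16.7 TPM in wild type and 7.97 and 12.2 TPM in the libraries labelled SOX21-/-. The 3 RPA genes stayed within a factor of 2.20 of each other in all 12 libraries.

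**Figure D1:**
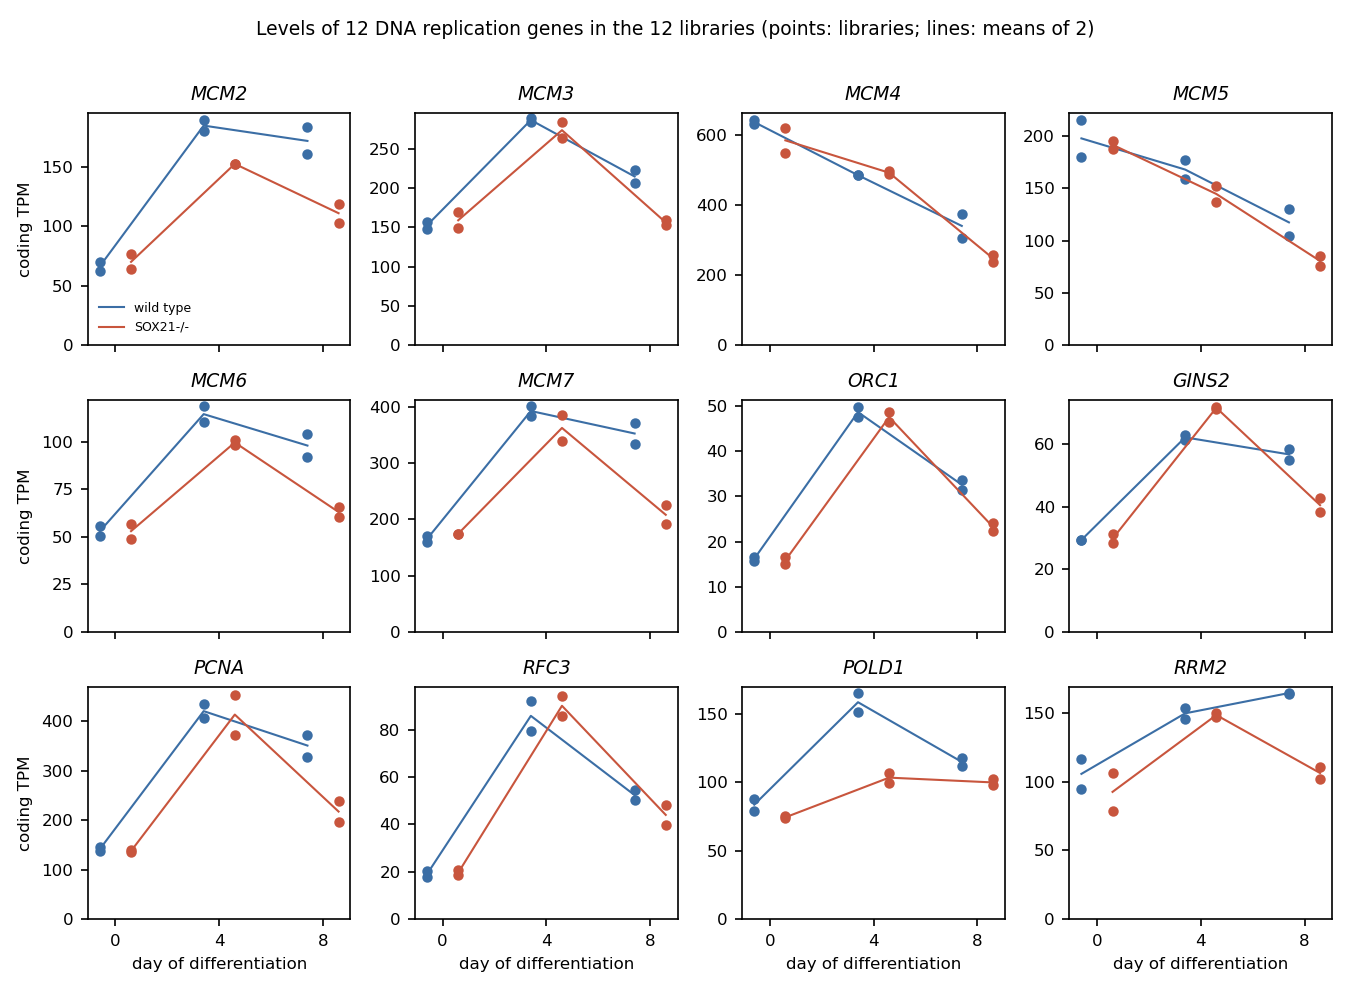
Coding TPM (vertical axis, from 0) of 12 replication genes against the day of differentiation, with 1 point per library and lines through the means of 2 libraries for wild type (blue) and SOX21-/- (red). At day 8 both red points lie below both blue points in all 12 panels, while at day 0 the genotypes lie close together. The panels are the 8 genes called at day 8 with MCM5, RFC3, POLD1 and RRM2. They do not stand for all 35, of which 28 lay lower in both libraries on the deposited TPM.

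From day 0 to day 4, most replication genes rose within the coding transcripts in both genotypes. In wild type 24 of the 35 rose and 5 fell (background 51.7% rose and 19.2% fell of 14809 coding genes), and in the libraries labelled SOX21-/- 22 rose and 5 fell (background 46.1% and 21.6%). The same 22 rose in both genotypes, RFC4 and MCM10 were called higher in wild type alone, and 3 fell in both. The members' median step was 0.90 in wild type and 0.83 in SOX21-/-, against 0.55 and 0.42 for all coding genes tested, so the median coding gene stepped up too. Of the 53 other replication genes 40 rose and 9 fell in wild type and 38 rose and 10 fell in SOX21-/-, and of the 28 mitosis genes 14 rose and 3 fell, and 13 rose and 6 fell. In each genotype 22 of 35 members stepped by more than the median coding gene. The split of higher and lower calls depended on the scale: on the deposited TPM 31 rose and 0 fell in wild type, median-of-ratios scaling gave 16 that rose and 12 that fell, and quantile normalization 21 and 6. In SOX21-/- the corresponding splits were 30 and 0, 18 and 11, and 22 and 5. The backgrounds above hold for the coding scale only. No shares of all genes that rose or fell under these other scalings are given here, so these splits cannot be read against one.

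Among the licensing genes, the ring subunits parted. MCM2 went from 70.3 and 62.8 to 180.5 and 189 coding TPM in WT1 and WT2, and from 76.5 and 63.8 to 153 and 153 in S13 and S23. Both later values lay above both earlier ones in each genotype (log2 steps 1.46 and 1.12, SE 0.12 for both, adjusted p = 2.26e-06 and 1.60e-05). MCM3, MCM6 and MCM7 rose too, by 0.90, 1.10 and 1.24 in wild type and 0.78, 0.90 and 1.05 in SOX21-/-. MCM4 took a negative step, -0.39 in wild type, which passed, and -0.25 in SOX21-/- (adjusted p = 0.0501), but on the deposited TPM its wild-type step was 0.24. MCM5 was at -0.23 in wild type (adjusted p = 0.137) and fell by 0.41 in SOX21-/-, where its step was 0.22 on the deposited TPM. ORC1 rose by 1.53 and 1.52, and ORC6, another subunit of that complex, by 1.36 and 1.06.

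The loading factor CDT1 and its inhibitor went opposite ways on the coding scale. CDT1 was at 80.5 and 97.3 coding TPM at day 0 and 51.1 and 64.4 at day 4 in wild type, and at 86.7 and 88.4 and then 47.1 and 42.7 in S13 and S23. It fell in both (log2 steps -0.62 and -0.95, adjusted p = 0.00256 and 0.000153), although its wild-type step was 0.0087 on the deposited TPM. GMNN, which encodes geminin, was at 75.9 and 60.0 and then 114 and 106 coding TPM in wild type and at 68.1 and 58.8 and then 113 and 114 in SOX21-/-. It rose in both by 0.70 and 0.83 (adjusted p = 0.000584 and 0.000181). The wild-type call of GMNN was lost with median-of-ratios scaling, and its lowest wild-type step over the alternatives was 0.025. CDC6, the ATPase that joins ORC before loading, stepped by -0.54 in wild type and -0.24 in SOX21-/- (adjusted p = 0.00115 and 0.0737), and its wild-type step was 0.090 on the deposited TPM.

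At the fork, the largest step of all 35 was that of RFC3, a subunit of the clamp loader. It went from 20.2 and 17.9 to 92.2 and 79.4 coding TPM in wild type and from 20.5 and 18.6 to 94.3 and 85.8 in SOX21-/- (log2 steps 2.11 and 2.15, SE 0.14, adjusted p = 4.83e-07 and 4.62e-07). RFC2, of the same complex, fell by 0.66 and 0.59 on the coding scale, with a SOX21-/- step of 0.025 on the deposited TPM. PCNA, the clamp that RFC loads, rose from 145 and 138 to 435 and 407 and from 135 and 140.3 to 454 and 373 coding TPM (1.56 and 1.57). Of the helicase activation genes GINS1, GINS2, GINS4 and CDC45 rose in both genotypes, by 0.74 to 1.24. Only the rises of GINS2 passed in both genotypes under every scaling. Median-of-ratios scaling lost the calls of GINS1 in both genotypes and of GINS4 and CDC45 in wild type. Quantile normalization lost those of GINS1 and CDC45 in wild type. GINS3 fell in both, from 78.3 and 40.2 to 27.8 and 27.4 coding TPM in wild type and from 59.8 and 67.6 to 29.9 and 32.6 in SOX21-/-. On the deposited TPM neither step of GINS3 passed (-0.38 and -0.39, adjusted p = 0.288 and 0.287), and the calls were also lost without WT1 of day 0 (adjusted p = 0.0865) and, in SOX21-/-, without S23 of day 0 (adjusted p = 0.0515). POLA1, POLD1 and POLE, the catalytic subunits of polymerases alpha, delta and epsilon, rose in both, while PRIM1, the primase, did not pass (-0.03 and -0.18). The rise of POLD1 in SOX21-/- (0.47) became -0.034 with median-of-ratios scaling.

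FEN1, the nuclease that removes the flaps of Okazaki fragments, rose by 1.20 and 1.43. LIG1, the ligase that seals them, stepped by -0.18 in wild type (adjusted p = 0.166) and fell by 0.56 in SOX21-/-, a step of 0.052 on the deposited TPM. Of the nucleotide genes, TYMS (thymidylate synthase) and TK1 (thymidine kinase) rose by 1.29 and 1.19 in wild type and 1.30 and 1.27 in SOX21-/-. RRM2, the small subunit of ribonucleotide reductase, rose by 0.51 and 0.69, and its wild-type step was -0.17 with median-of-ratios scaling, under which the rise of RFC4 in wild type (0.34) also turned to -0.34. RRM1, the large subunit, did not pass, with steps of 0.06 and 0.03. Other calls of this step were lost without 1 library: RFC4 and RRM2 in wild type without WT2 of day 0, MCM10 in wild type without WT2 of day 0 or of day 4, MCM5 in SOX21-/- without S13 of either day, and POLE in SOX21-/- without S23 of either day. Further calls were lost with another scaling. Median-of-ratios scaling lost MCM10 and RFC5 in wild type and POLE and RRM2 in SOX21-/-. Quantile normalization lost MCM4 and MCM10 in wild type and MCM5 in SOX21-/-. The deposited TPM lost RFC2 in wild type and CDT1 in SOX21-/-. The makeup of the day 0 libraries moved with every one of these steps, and its part in them was not tested.

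**Figure D2:**
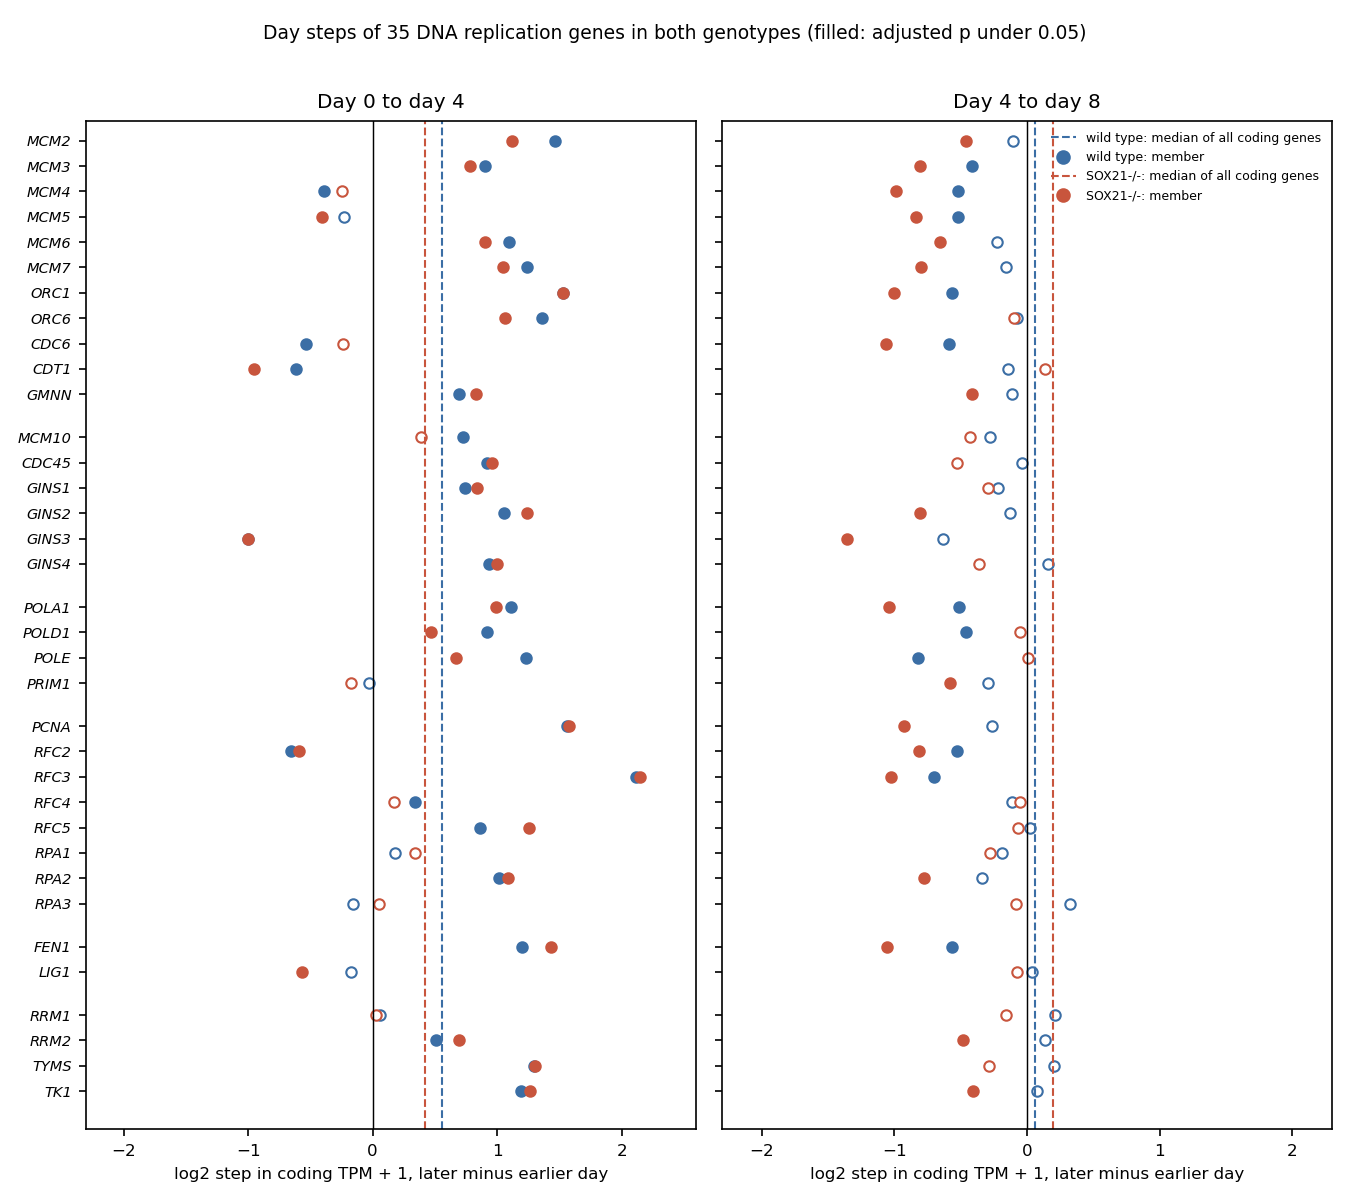
Log2 step in coding TPM + 1 (horizontal axis) of each of the 35 genes (rows, grouped by role) from day 0 to day 4 (left) and day 4 to day 8 (right), in wild type (blue) and SOX21-/- (red). Filled points passed an adjusted p under 0.05 and dashed lines are the medians of all coding genes tested, so a reader sees most points right of them on the left and left of them on the right.

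Genotype differences at day 4 were few. POLD1 alone was called (background lower 0.536%), with 132 and 144 TPM for WT1 and WT2 and 86.7 and 93.3 TPM in S13 and S23. Both SOX21-/- values lay below both wild-type values (log2 difference -0.61 with an SE of 0.08, adjusted p = 0.0280). The call was lost without WT1 or WT2 at day 4, S13 at day 4, or either SOX21-/- library of day 0, and with median-of-ratios scaling, without a variance trend, or when only the groups compared or only days 4 and 8 were fitted, and the range over its alternatives was 0.0193 to 0.179. POLE lay lower in both libraries, at 63.3 and 87.1 against 129.7 and 121 TPM, but did not pass (log2 difference -0.75 with an SE of 0.19, adjusted p = 0.119), nor did LIG1 (-0.35, adjusted p = 0.144). The members' median was -0.01 and that of all genes tested -0.12. At an unadjusted p under 0.05 there were 6 lower and 1 higher, for which no share of all genes is given here. For 11 members both SOX21-/- libraries lay above both wild-type ones and for 8 below (background 11.1% and 33.8%).

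By day 8, a group of replication genes was lower in the libraries labelled SOX21-/-. Limma called 8 of the 35 lower and 0 higher (background 1.32% lower and 1.47% higher of 24248 genes, and 1.47% lower of protein-coding genes): MCM2, MCM3, MCM4, MCM6, MCM7, ORC1, GINS2 and PCNA. The log2 fold change was negative for 32 of 35, with a median of -0.33 where the median of all genes was 0. For 28 members both SOX21-/- libraries lay below both wild-type ones (background 21.7%), and for RPA1 alone above (background 21.4%). In bulk RNA, fewer cells that replicate their DNA and less of these RNAs per cell cannot be told apart.

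Licensing genes held 6 of the 8 calls, among 11 members with a median of -0.44. MCM7 (chr7:100092728-100101940, minus strand, GRCh38) had 286 and 311 TPM in WT1 and WT2 and 194 and 162 TPM in S13 and S23. The genotypes did not overlap (log2 difference -0.74 with an SE of 0.10, adjusted p = 0.00836), and the mean was 40.2% lower. MCM6 (chr2:135839626-135876426, minus strand) was at 79.0 and 86.7 TPM in wild type, against 56.8 and 51.2 TPM in SOX21-/-. MCM2 (chr3:127598223-127622436, plus strand) was at 138 and 153 TPM, against 103 and 87.7 TPM. Both were again lower in each SOX21-/- library, at log2 differences of -0.61 and -0.61 (SE 0.10 and 0.12, adjusted p = 0.0214 and 0.0332).

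MCM3 (chr6:52264009-52284881, minus strand) had 178 and 186 TPM in wild type and 138 and 130.0 TPM in SOX21-/-, and MCM4 (chr8:47960185-47978160, plus strand) had 263 and 312 TPM, against 205 and 219 TPM. Neither overlapped between genotypes, at log2 differences of -0.44 and -0.43 (adjusted p = 0.0298 and 0.0472). MCM5, at 89.9 and 109 against 73.7 and 64.3 TPM, lay lower in both libraries and missed the threshold (log2 difference -0.52 with an SE of 0.13, adjusted p = 0.0809). The ring's MCM2 to MCM7 summed to 1034 and 1157 TPM in wild type and 770.3 and 715 TPM in SOX21-/- at day 8, where the day 4 sums had been 1412 and 1421 TPM and 1350.1 and 1299.5 TPM. ORC1 (chr1:52372829-52404459, minus strand) was at 27.0 and 28.2 TPM, against 20.8 and 19.0 TPM (log2 difference -0.45 with an SE of 0.09, adjusted p = 0.0478). ORC6, CDC6, CDT1 and GMNN did not pass, with log2 fold changes from -0.24 to -0.05.

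GINS2 (chr16:85676198-85690073, minus strand) was the 1 called gene of the 6 for helicase activation, at 47.1 and 48.8 TPM in wild type and 37.0 and 32.4 TPM in SOX21-/- (log2 difference -0.46 with an SE of 0.09, adjusted p = 0.0380). Every SOX21-/- value lay below every wild-type value. CDC45, the partner of GINS in the helicase, was at 39.1 and 42.1 against 32.9 and 27.4 TPM and did not pass (log2 difference -0.42 with an SE of 0.19, adjusted p = 0.338). GINS4, at 99.9 and 85.6 against 59.0 and 59.1 TPM, did not pass either (log2 difference -0.64 with an SE of 0.19, adjusted p = 0.137). Its SE comes from the spread in all 6 groups, not from day 8 alone. GINS3 was at 13.1 and 16.7 against 7.97 and 12.2 TPM (adjusted p = 0.438). For GINS1 and MCM10, a factor that helps to activate the helicase, the genotypes overlapped (-0.10 and -0.11). The overlap also held for ORC6, CDT1, POLE and RFC5.

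PCNA (chr20:5114953-5126626, minus strand) was at 282 and 312 TPM in wild type, against 206 and 167 TPM in SOX21-/- (log2 difference -0.68 with an SE of 0.12, adjusted p = 0.0283), and the mean was 37.2% lower. The other 7 clamp loader and RPA genes did not pass and ran from -0.38 for RFC2 to 0.21 for RPA1, which binds single strands and was at 78.9 and 85.1 against 97.3 and 92.2 TPM.

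None of the 4 polymerase and primase genes passed at day 8. POLA1 and PRIM1, which together start each new strand, lay lower in both SOX21-/- libraries, at log2 differences of -0.37 and -0.33 (adjusted p = 0.176 and 0.160). POLD1, lower at day 4, was at 102 and 93.5 against 84.5 and 86.8 TPM (-0.18, adjusted p = 0.337), and POLE at 81.1 and 58.4 against 77.5 and 70.0 TPM, where the genotypes overlapped. LIG1 was at 69.9 and 71.2 against 55.1 and 48.1 TPM and lay just outside the threshold (log2 difference -0.45 with an SE of 0.10, adjusted p = 0.0577). So did RRM2, at 141 and 138 against 95.7 and 86.4 TPM (log2 difference -0.61 with an SE of 0.14, adjusted p = 0.0676). TYMS, TK1 and RRM1 had log2 fold changes of -0.33, -0.30 and -0.33 and did not pass, although both SOX21-/- libraries lay below both wild-type ones for each. TYMS was at 198 and 216 against 184 and 147 TPM, TK1 at 68.9 and 76.2 against 63.2 and 54.8 TPM, and RRM1 at 175 and 162 against 131 and 137 TPM.

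The day 8 calls rest on few libraries. Leaving out WT2 at day 8 left 0 of the 35 called, S23 at day 8 left 1, and WT1 or S13 at day 8 left 2 each. Without WT1 or WT2 of day 4 there were 2 each, without S13 or S23 of day 4 there were 5 each, and without WT1 or WT2 of day 0 there were 4 each. Fitting only the groups compared left 0, and leaving out the mean trend of the variance left 1. A replicate block also left 0, but there the genotype difference compares the level of S13 with that of WT1, not the group means. It counts among the 23 alternatives below. A fit on days 4 and 8 alone, which leaves out the day 0 libraries, called 5, of which 4 were among the 8. MCM7 passed in 20 of 23 alternatives (adjusted p from 0.00251 to 0.118), MCM6 in 16, MCM2 and MCM3 in 14 each, PCNA in 10, GINS2 in 8, MCM4 in 5 and ORC1 in 4, and no alternative reversed any of these 8 differences. Over the members, S23 was lower than S13 at day 8 for 26 of 35 (median log2 difference -0.12). It was also lower for 25 at day 0 and 24 at day 4 (medians -0.12 and -0.06). WT2 was lower than WT1 for 26, 18 and 12 members at days 0, 4 and 8.

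**Figure D3:**
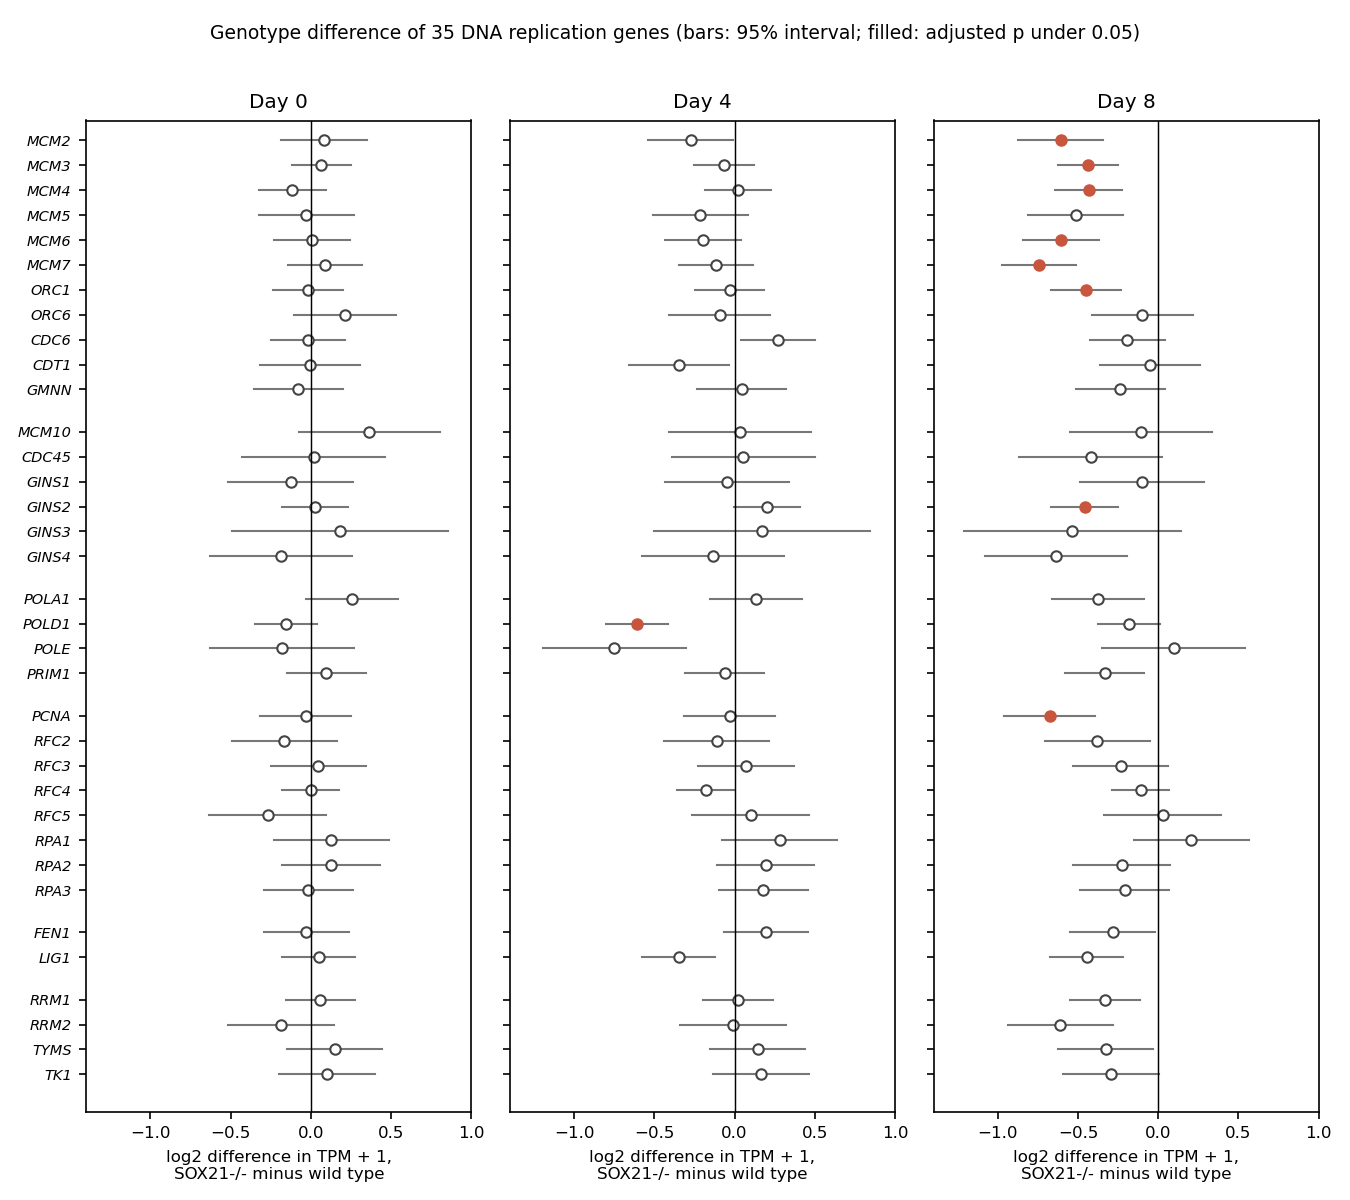
Log2 difference in TPM + 1 between the libraries labelled SOX21-/- and wild type (horizontal axis) of each of the 35 genes (rows, by role) at days 0, 4 and 8. Bars are 95% intervals and filled points passed an adjusted p under 0.05: none at day 0, POLD1 at day 4, and 8 genes left of 0 at day 8.

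Other genes of the pathway and the cell cycle were set beside the members. Of 53 other replication genes 2 were lower at day 8 and 0 higher, with a median of -0.16. They were DUT, which clears dUTP, at 127 and 122 TPM in wild type and 64.1 and 74.8 TPM in SOX21-/- (log2 difference -0.83 with an SE of 0.11, adjusted p = 0.00825), and the histone chaperone NASP, at 699 and 733 against 534 and 519 TPM (log2 difference -0.44 with an SE of 0.08, adjusted p = 0.0244). None of 28 mitosis genes was called by limma (lowest adjusted p 0.117, 3 lower and 1 higher at an unadjusted p under 0.05), and their median was -0.06. Of 31 tested genes of G1/S control, CCND1 (cyclin D1) and the inhibitor CDKN1C were higher, with log2 fold changes of 0.77 and 1.02, and MYCN and MYC lower, with -1.18 and -1.10 (adjusted p = 0.0246, 0.0393, 0.0143 and 0.0423). Each of these 6 calls was lost without WT2 of day 8, and those of all but MYCN also without WT1 of day 8. No test of the difference between these lists was made. At day 4 limma called 1 of the 31 lower, CCND2 (cyclin D2), at 30.2 and 35.2 against 19.4 and 20.2 TPM (log2 difference -0.69 with an SE of 0.12, adjusted p = 0.0470), a call lost without any 1 of the 12 libraries, with 1 higher and 7 lower at an unadjusted p under 0.05. There it called 0 of the 53 (1 higher and 9 lower at an unadjusted p under 0.05) and 0 of the 28 (0 higher and 7 lower).

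Single markers of other cell types differed between the genotypes at day 8 as well. The summed coding TPM of 8 young neuron markers was 461 to 464 in wild type and 257 to 344 in SOX21-/-, with 6 and 7 of the 8 at 1 coding TPM or above and none at 0 in both libraries of a group. Of the 7 tested, 5 had a negative and 2 a positive difference (the highest 1.32 on the log2 scale), and the genotypes did not overlap for 4 of the 5 and for both of the 2. Limma called 1, DCX, at 20.7 and 25.7 against 4.92 and 2.12 TPM (log2 difference -2.49 with an SE of 0.30, adjusted p = 0.00554). Of 6 endoderm markers, only CXCR4 reached 1 coding TPM at day 8 and was called higher (1.74, adjusted p = 0.00949), SOX17 and FOXA2 were listed at 0 in all 4 libraries, and the sum was 34.9 to 35.1 in wild type and 106 to 130.1 in SOX21-/-. Both calls were lost without WT2 of day 8, that of CXCR4 also without WT1 or S23. The sums of the neural progenitor markers were 2069 to 2096 in wild type and 2263 to 2445 in SOX21-/-, and those of the pluripotency markers 1016 to 1037 and 881 to 1057. For 6 neural crest markers the sums were 235 to 238 and 189 to 296, and 3 of the 6 reached 1 coding TPM in each genotype. The 5 mesoderm markers in the table summed to 1.65 to 2.90 and 2.65 to 3.35, and 6 trophoblast markers to 0.291 to 1.77 and 3.48 to 6.76. The part of these markers in the lower replication gene levels was not tested.

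From day 4 to day 8, the replication genes that changed fell in both genotypes, while more mitosis genes rose than fell. In wild type 11 of the 35 fell and 0 rose (background lower 7.15%), and in the libraries labelled SOX21-/- 20 fell and 0 rose (background lower 11%). The members' median step was -0.22 in wild type and -0.48 in SOX21-/-, where the median coding gene stepped by 0.06 and 0.20. All 35 members stepped by less than the median coding gene in SOX21-/-, and 29 did in wild type. Of 28 mitosis genes, 10 rose and 0 fell in wild type and 16 rose and 1 (MYBL2) fell in SOX21-/- (background higher 12% and 26.3%). Of the 53 other replication genes 3 rose and 9 fell in wild type and 6 rose and 18 fell in SOX21-/-, and of the 31 G1/S genes 8 rose and 3 fell, and 10 rose and 5 fell. In SOX21-/- the calls of GMNN, RRM2 and TK1 were lost without any 1 of the 4 SOX21-/- libraries of these days, that of TK1 also without WT2 of day 4, and that of MCM2 without S13 or S23 of day 4 or S23 of day 8. The wild-type count of members went to 2 without WT1 at day 4, to 3 without WT2 at day 4 and to 3 without WT1 at day 8.

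The 9 genes that fell in both genotypes were MCM3, MCM4, MCM5, ORC1, CDC6, POLA1, RFC2, RFC3 and FEN1. CDC6 went from 78.1 and 70.8 to 51.0 and 47.5 coding TPM in WT1 and WT2, and from 93.8 and 86.1 to 43.8 and 41.0 in S13 and S23. Day 8 lay below day 4 in each genotype (log2 steps -0.58 and -1.07, SE 0.11, adjusted p = 0.00502 and 9.46e-05). FEN1 fell from 109 and 109.8 to 67.7 and 80.7 and from 127 and 124 to 61.3 and 58.3 coding TPM (-0.56 and -1.06). POLA1 fell by 0.51 and 1.04, and RFC3, the gene with the largest earlier rise, by 0.70 and 1.02.

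A further 11 members were called lower in SOX21-/- and not in wild type: MCM2, MCM6, MCM7, GMNN, GINS2, GINS3, PRIM1, PCNA, RPA2, RRM2 and TK1. PCNA was at 435 and 407 coding TPM at day 4 and 329 and 373 at day 8 in wild type, and at 454 and 373 and then 239 and 196 in SOX21-/-. The steps were -0.26 (adjusted p = 0.160) and -0.92 (adjusted p = 0.000381). MCM7 stepped by -0.16 and -0.80, GINS2 by -0.13 and -0.81, and RRM2 by 0.14 and -0.48. POLD1 and POLE were called lower in wild type and not in SOX21-/-, with steps of -0.46 and -0.82 against -0.05 and 0.01.

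These steps share their libraries with the genotype differences at days 4 and 8, so the values stand side by side and neither supports the other. A call in 1 genotype alone does not show that the genotypes differ, so the change of the genotype difference was tested. From day 4 to day 8 limma called none of the 35 (background 2.13%, lower 0.54%), with 16 lower and 2 higher at an unadjusted p under 0.05. The backgrounds are for adjusted p. No share of all genes at an unadjusted p is given here, so the unadjusted counts cannot be set against them. GINS2 (-0.68, adjusted p = 0.0509), MCM7 (-0.64, 0.0534) and PCNA (-0.66, 0.0780) were nearest to the threshold, which 2 members passed without S23 of day 4, 1 without S13 of day 0 and 1 without S13 of day 8, and the change was below 0 for 31 of 35. POLE and POLD1 had changes of 0.83 and 0.41 (adjusted p = 0.116 and 0.137). From day 0 to day 4 it called none either (lowest adjusted p 0.180, background 0.176%), with 2 lower and 0 higher at an unadjusted p under 0.05. From day 0 to day 8 MCM7 alone was called (background lower 0.486%), with a change of -0.84 (SE 0.15, adjusted p = 0.0263). That call was lost without any of the 4 day 0 libraries, WT1 or WT2 of day 4, or WT2 or S23 of day 8, and without a variance trend or with only the groups compared, with adjusted p from 0.00883 to 0.129 over its alternatives.

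Set against day 0, the level reached at day 8 differed from gene to gene. In wild type 26 of the 35 were above day 0 in both libraries on the coding scale (background 63.5%), 8 below (background 23.5%) and 1 overlapping. In SOX21-/- 20 were above (background 61.8%), 9 below (background 23.7%) and 6 overlapping, and none of this was tested. MCM4, MCM5, CDC6, CDT1, GINS3, PRIM1, RFC2 and LIG1 were below day 0 in both genotypes, and RRM1 was below it in SOX21-/- alone. This depended on the scale. On the deposited TPM, PRIM1 and LIG1 in wild type and RRM1 in SOX21-/- lay above day 0 in both libraries. MCM4, CDC6, GINS3 and RFC2 stayed below it in both genotypes. The summed coding TPM of the 35 was 3347 and 3109.8 in wild type at day 0. It was 4635 and 4642 at day 4, then 3836 and 4119 at day 8. In SOX21-/- it went from 3282 and 3067 through 4644 and 4335 to 3102 and 2917. On the coding scale the sum at day 8 was thus above day 0 in wild type, and its range overlapped day 0 in SOX21-/-. On the deposited TPM the SOX21-/- sum was 2681 and 2476 at day 8, above the 1849 and 1729 of day 0.

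**Figure D4:**
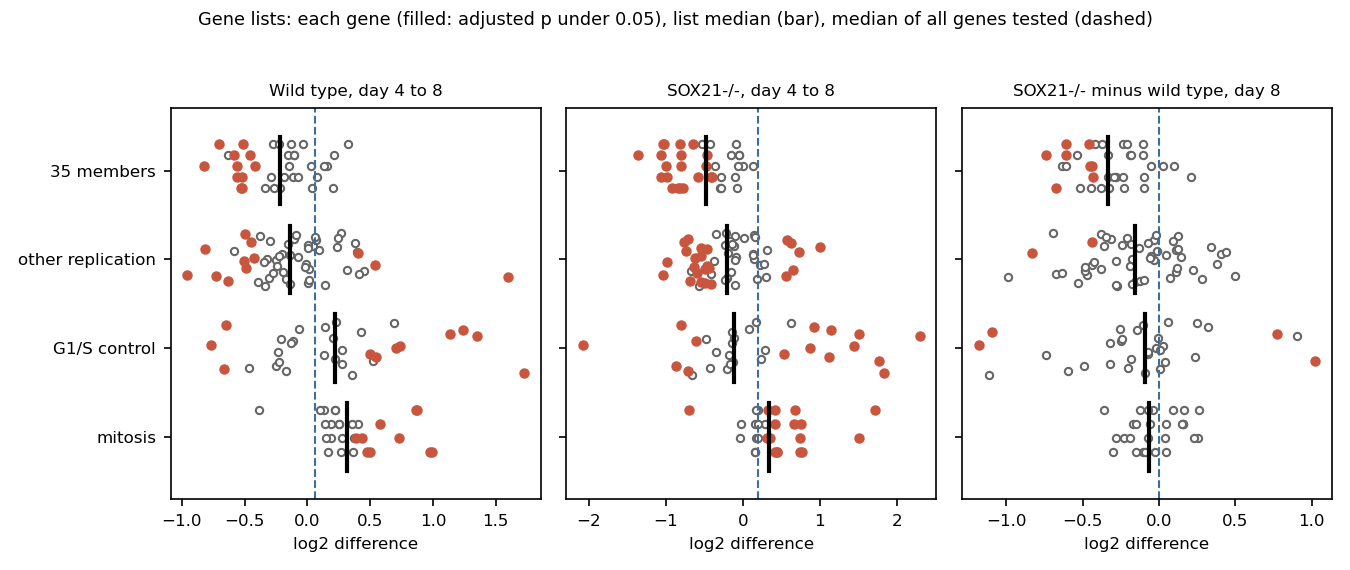
Log2 steps from day 4 to day 8 in wild type (left, coding TPM + 1) and SOX21-/- (middle), and the genotype difference at day 8 (right, TPM + 1), on the horizontal axes, for the genes of 4 lists (rows). Each point is a gene, filled where it passed an adjusted p under 0.05, the bar is the list's median and the dashed line the median of all genes tested; the members' bars lie left of the dashed line and the mitosis bars right of it in both steps.

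Of the 35 members, 19 overlap another annotated gene in GENCODE v29 (GRCh38), and no source used here says whether counting used strand. MCM7 holds the microRNA genes MIR25, MIR93 and MIR106B on its own strand and overlaps AP4M1 on the other, so reads from these places cannot be told apart. AP4M1 was at 7.80 to 19.6 TPM over the 12 libraries, below MCM7 in each. MIR25 was listed at 22.0 to 254 TPM, above MCM7 in WT1 and WT2 of day 0 (120.1 and 166 TPM). At day 8 it stood at 114 and 92.6 TPM in wild type, against 129.6 and 97.6 TPM in SOX21-/-, where the genotypes overlapped. For 7 members the table listed 14 processed or other pseudogenes named after them, which summed to at most 0.704 TPM for any member and 0.611% of the parent gene.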

How the data were processed

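Poly(A) RNA was sequenced in 12 libraries, 2 in each of 6 groups of genotype and day. The values are TPM per gene as deposited by the authors. Salmon 0.8.2, CASAVA 1.7 and the build hg38 are named in the submitters' processing notes, while annotation release, strand setting and filters are not given in the sources used here. The labels' protocols name 3 sequencing platforms with different read lengths and do not assign them to libraries, so no within-platform values could be had.

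Groups were taken from the labels. Genotype differences were tested with limma 3.58.1 (R 4.3.3) on log2(TPM + 1), with a mean per group, all 12 libraries in 1 fit, variances moderated with a trend, two-sided p-values and Benjamini-Hochberg adjustment over the 24248 genes with at least 1 TPM in at least 2 libraries. A gene was called at an adjusted p under 0.05. Backgrounds of calls hold for this threshold, and counts at an unadjusted p have no background. Day steps, and the change of the genotype difference between days, used coding TPM in the same way (14809 genes tested of 19804). Fold changes on the log2(value + 1) scale understate those of low genes. Depth is unknown and no counting interval could be given. The fit was run on data simulated from its own variances, which cannot show whether those variances hold for these libraries.

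Any of the 35 members could be named, and of the other lists called genes only, at most 6 a list. The members and lists were chosen with earlier results of these data known. Alternatives were a pseudocount of 0.1, a filter of 5 TPM or none, quantile normalization, median-of-ratios scaling, the other scale, robust moderation, no trend in it, fits on fewer groups, a replicate block and leaving out each library. Promoter windows came from RefSeq and gene positions from GENCODE. Figures were drawn with matplotlib 3.10.9.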

Additional observations from a re-analysis of the deposited data

Results flagged for a closer look

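Among the genes of the lists, cell type markers included, 5 had a genotype difference that itself changed between days (limma on coding TPM, Benjamini-Hochberg adjustment). From day 4 to day 8 this called 0 of 35 members, 1 of 53 other replication genes, 1 of 31 G1/S genes and 0 of 28 mitosis genes. Of all 14809 coding genes 2.13% were called there, 0.176% from day 0 to day 4, and 0.486% lower from day 0 to day 8. The lists were not tested against these shares. For MCM7, a subunit of the replicative helicase, the change from day 0 to day 8 was -0.84 on the log2 scale (adjusted p = 0.0263). MYCN, a transcription factor of the MYC family, changed by -1.31 from day 4 to day 8 (adjusted p = 0.0311) and by -1.28 from day 0 to day 8 (adjusted p = 0.0460). Its day 4 levels were 70.5 and 71.1 TPM in wild type, against 82.9 and 69.7 TPM in SOX21-/-. Its day 8 levels were 36.5 and 44.3 TPM, against 19.4 and 15.1 TPM.

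CHTF18, a subunit of an alternative clamp loader, changed by 1.28 from day 4 to day 8 (adjusted p = 0.0342). Its day 4 levels were 119 and 125 TPM in wild type, against 60.2 and 80.7 TPM in SOX21-/-. Its day 8 levels were 78.8 and 65.0 TPM, against 102 and 101 TPM. The order of the genotypes was thus opposite on these days, with no overlap on either.

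LHX2, a transcription factor of the neural progenitor marker list, changed by -1.90 from day 0 to day 4 (adjusted p = 0.0315). Its day 0 levels were 0.133 and 0.206 TPM for WT1 and WT2, and 0.254 and 0.204 TPM for S13 and S23. At day 4 they were 60.2 and 78.9 TPM, against 18.2 and 20.5 TPM. DCX, a microtubule-binding protein of young neurons, changed by -2.75 from day 0 to day 8 (adjusted p = 0.0197). It was at 0.331 and 0.509 TPM against 0.846 and 0.344 TPM at day 0. At day 8 it was at 20.7 and 25.7 TPM, against 4.92 and 2.12 TPM. Each of these 6 changes lost its call without at least 4 of the 12 libraries, each left out in turn, and none reversed.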

How the results depend on the processing

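At day 4 the 1 called member became 0 with median-of-ratios scaling, without a trend, with only the groups compared, with only days 4 and 8 and with a replicate block. For the genotype difference within a day, that block compares the level of S13 with that of WT1 instead of the group means. Its 0 at day 4 and at day 8 therefore does not speak to the difference of the means. The 8 at day 8 became 1 without a trend, 0 with only the groups compared, 5 with only days 4 and 8 and 0 with a replicate block, and lay between 6 and 12 in the other settings that kept every library. For the change of the genotype difference from day 4 to day 8, where 0 were called, there were 2 with a filter of 5 TPM, 1 with no filter, 2 with median-of-ratios scaling, 3 with quantile normalization, 1 with only the groups compared and 1 with only days 4 and 8. From day 0 to day 8 the 1 became 4 with quantile normalization, 0 without a trend and 0 with only the groups compared. Leaving out 1 library at a time gave 0 to 1 at day 4, 0 to 6 at day 8, 2 to 11 between days 4 and 8 in wild type, and 0 to 2 and 0 to 1 for the changes from day 4 and from day 0 to day 8. The cause was not tested. On the deposited scale the steps from day 0 to day 4 reversed for MCM4 (0.24), CDC6 (0.090) and CDT1 (0.0087) in wild type and MCM5 (0.22), RFC2 (0.025) and LIG1 (0.052) in SOX21-/-. With median-of-ratios scaling they reversed for RFC4 (-0.34) and RRM2 (-0.17) in wild type and POLD1 (-0.034) in SOX21-/-. Of 4157 values for single called genes, 3775 kept direction and call, 373 lost the call and 9 reversed, none of these by leaving out a library.

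With 2 labels per genotype, the replicate block left 29 and 28 members called in the steps from day 0 to day 4 and 11 and 20 in those from day 4 to day 8, in wild type and SOX21-/-. The deviations of same-labelled libraries from their group means correlated by 0.208 between days 4 and 8 for S13 and S23. Every other correlation between days lay between -0.0268 and 0.0235. The main fit did not take the labels as pairs, since the sources do not say what a repeated label marks. Whether S13 and S23 of days 4 and 8 are independent was not tested. The values hold no read numbers, so no limit from depth can be stated.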
